A study of Caenorhabditis elegans with 11 samples.

Results

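The comparison described here is that of tumoral C. elegans given tryptophan-betaxanthin with tumoral animals given water, and it rests on 5 of the 11 arrays of the series, chosen by their titles. The 3 arrays of independent trials 1, 2 and 3 of tryptophan-betaxanthin were set against the 2 arrays of trials 1 and 2 of water. All animals belonged to strain JK1466, which carries gld-1(q485) over dpy-5(e61) unc-13(e51), and all of them, controls included, grew in liquid medium on E. coli HT115 that knocks down gld-1 by RNA interference. The treated animals received 25 µM of the pigment for 48 h at 20 °C, from 16 to 18 h after hatching, and the controls received an equal volume of water. Whole animals were collected as L4 larvae or young adults, and the labels put both groups at an age of 2 days after hatching, which is less than the start and the length of the treatment added together. The stock is heterozygous, so the knockdown was what the study relied on to give every animal the tumor. No water array of trial 3 and no array of wild-type animals was analysed here, so the knockdown could not be set against a normal level. The labels call the trials independent, and the p-values measure the spread between these arrays.

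Betaxanthins are the yellow members of the betalains, the nitrogenous pigments of beets and cactus fruits, and tryptophan-betaxanthin joins betalamic acid to the amino acid tryptophan. GLD-1 is an RNA-binding protein that takes germ cells through meiosis; when it is lost, they return to mitosis and fill the gonad with a tumor. Worms meet foreign small molecules mainly in the intestine, where cytochromes P450 oxidise them, UDP-glucuronosyltransferases and glutathione S-transferases attach a sugar or glutathione, and ABC transporters export the products. The epidermis, or hypodermis, builds a new collagen cuticle at every molt and secretes antimicrobial peptides.

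The values were log2 signals per probe set, on which a difference of 1 is a doubling of the signal. Of 26128 genes measured, 767 passed the threshold, an adjusted p under 0.05 from limma with the Benjamini-Hochberg adjustment over all 26761 tested probe sets. That is 2.94% of the genes, with 191 up-regulated (0.731%) and 576 down-regulated (2.2%) after tryptophan-betaxanthin. In 44 of the up-regulated and 81 of the down-regulated genes the difference was 1 or more, and the median difference was 0.79 in the former and -0.71 in the latter. Protein-coding genes made up most of both sets, with 169 of 17477 up-regulated and 540 of 17477 down-regulated. Of 6678 non-coding RNA genes, 17 were up-regulated and 5 down-regulated. On chromosome X 1.32% of the genes were down-regulated, and on the other chromosomes the share lay between 2.2% and 2.94%, which was not tested. These shares count coding and non-coding genes together, and the mix of both on each chromosome was not compared.

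The array of the third tryptophan-betaxanthin trial stood apart. Its squared distance to the other treated arrays was 2110 and 1960, against 1200 between the first and second treated arrays and 847 between the water arrays. On the second principal component, which held 24.1% of the variance, it lay at 19.7 while the other treated arrays lay at -15.9 and -16.6. Without it, the same fit called 1083 probe sets, 301 higher and 782 lower, against 793 with it (2.96% of the tested probe sets), 196 higher and 597 lower, and 767 of the 793 were shared. Without the array of the second trial 297 probe sets were called, 82 higher and 215 lower, and without that of the first 814, 188 higher and 626 lower. The list counts given below for fits without a treated array are to be read beside these totals, since all calls moved with them. The count rested most on the controls: without water array 1 it fell to 19, and without water array 2 to 10, though all 793 kept their direction in both. In none of the gene lists did more than 1 gene in either direction pass without either of them. An exact permutation test of 3 arrays against 2 cannot give a p below 0.1. Of the tested probe sets, 33.4% had groups that did not overlap, and the same held for all 767 called genes. Leaving out 1 array could therefore not turn the direction of a called gene, so a kept direction adds nothing. Where treated arrays of a called gene are said to lie to 1 side of both controls, that also follows from the call.

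**Figure D1:**
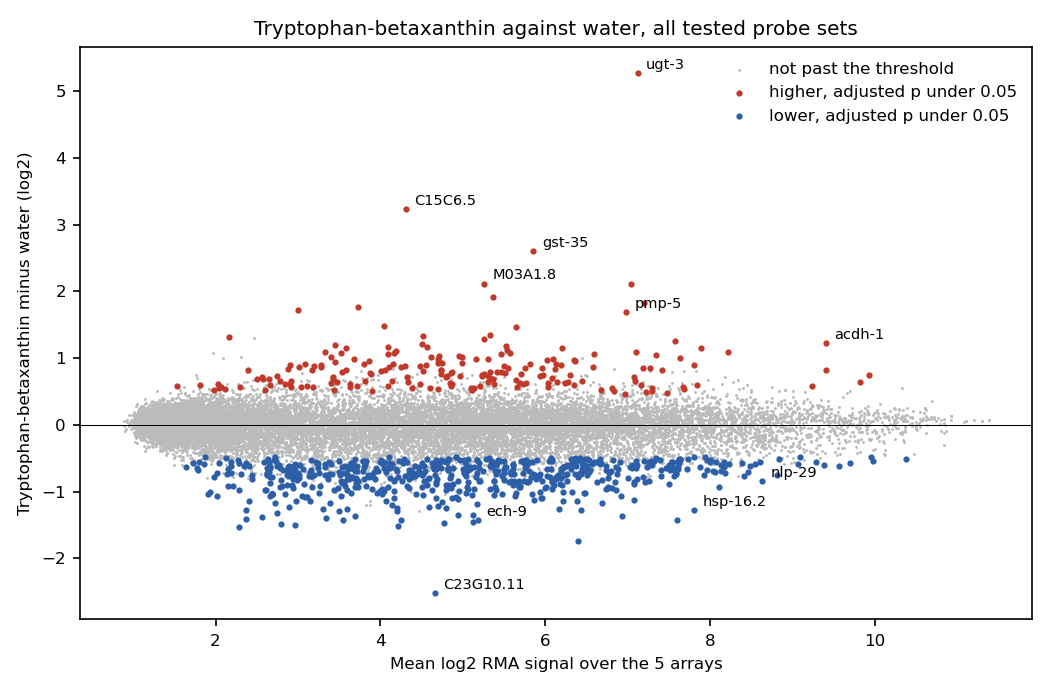
Difference of the group means (tryptophan-betaxanthin minus water, log2, vertical axis) against the mean log2 signal over the 5 arrays (horizontal axis), 1 point per tested probe set, with the 196 higher calls in red and the 597 lower calls in blue. The gene ugt-3 stands at 5.27, far above every other point, and C23G10.11 is the lowest at -2.52.

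The gene with the largest response was ugt-3, which encodes a UDP-glucuronosyltransferase. Its log2 signals were 3.80 and 4.11 in the water arrays and 9.29, 9.19 and 9.19 in the tryptophan-betaxanthin arrays. The treated arrays lay within 0.1 of each other and far above both controls, and the difference was 5.27 (standard error 0.12, adjusted p = 4.3e-07). Of the 67 UDP-glucuronosyltransferase genes measured, 6 were up-regulated and 3 down-regulated, 13.4% against 2.94% of all genes. The others up-regulated were ugt-21 (1.21), ugt-20 (0.90), ugt-63 (0.86), ugt-48 (0.61) and ugt-50 (0.53), and those down-regulated were ugt-39 (-0.66), ugt-18 (-0.78) and ugt-28 (-0.80). The response was uneven within the family, whose median difference was 0.05. Without the third treated array 8 of its genes were up-regulated and 4 down-regulated.

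Glutathione S-transferases and ABC transporters showed the same unevenness. The signals of gst-35 were 4.45 and 4.13 in water and 7.14, 7.03 and 6.52 after the pigment, with the third trial the lowest of the treated arrays and no overlap between groups (difference 2.60, standard error 0.19, adjusted p = 0.0011). In gst-9 the treated arrays spread more widely, from 6.34 in the first trial to 5.35 in the third, above controls at 4.48 and 4.55 (1.35, adjusted p = 0.0235). The third call among the 47 genes of this family (6.38% called, against 2.94% of all genes) was gst-12, which was down-regulated by 0.65. The ABC transporter list took 49 genes with the symbols pgp, mrp, haf, abt, pmp, cft and wht, of which 6.12% were called. In it pmp-5 was up-regulated by 1.69, with 5.91 and 6.03 in water against 7.73, 7.75 and 7.50. The half-transporter gene haf-9 was up-regulated by 0.64, and the P-glycoprotein gene pgp-11 was down-regulated by 0.58. Outside those symbols the ABC transporter gene hmt-1 was up-regulated by 1.16 (adjusted p = 0.0042), and it is counted with the metal handling genes.

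Of the 73 cytochrome P450 genes, cyp-14A5 (-0.69) and cyp-25A3 (-0.48) were down-regulated and none was called higher by limma, so that 2.74% were called, close to the 2.94% of all genes. Among 275 nuclear hormone receptor genes, nhr-68 (0.77) and nhr-98 (0.64) were up-regulated and nhr-244 (-0.74) and nhr-17 (-0.86) down-regulated. That was 1.45% of the family, below the share over all genes, and the 0.727% that were up-regulated were close to the 0.731% of all genes. Regulators that are known for responses to xenobiotics, fat and oxidants did not pass the threshold. The difference was 0.16 for nhr-86, 0.15 for nhr-49, 0.04 for skn-1 and -0.17 for the aryl hydrocarbon receptor gene ahr-1. Of 36 antioxidant genes, the metallothionein gene mtl-2 (0.69) was the single call, 2.78% against 2.94%.

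Several of the strongest increases fell outside these families, in genes whose function is not given in the sources used here. M03A1.8 read 4.02 and 3.96 in water and 6.12, 6.19 and 6.01 after the pigment, a difference of 2.12 (standard error 0.11, adjusted p = 2.0e-04). The signals of C35A5.3 were 4.15 and 4.29 in water against 5.93, 6.23 and 6.26 (1.92, adjusted p = 0.0011), and those of ZK742.3 were 6.06 and 6.14 against 8.03, 8.13 and 7.61 (1.82, adjusted p = 0.0020). In these genes the treated arrays lay close together and well clear of the controls. The non-coding RNA gene C15C6.5 had the second largest difference, 3.23 (standard error 0.44, adjusted p = 0.0091), but its arrays spread widely, with 2.99 and 1.74 in water and 5.52, 4.89 and 6.39 after treatment. T10B5.8 (1.48), W03G1.5 (1.31) and srlf-2 (1.73) completed the unannotated genes among the 15 largest increases.

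**Figure D2:**
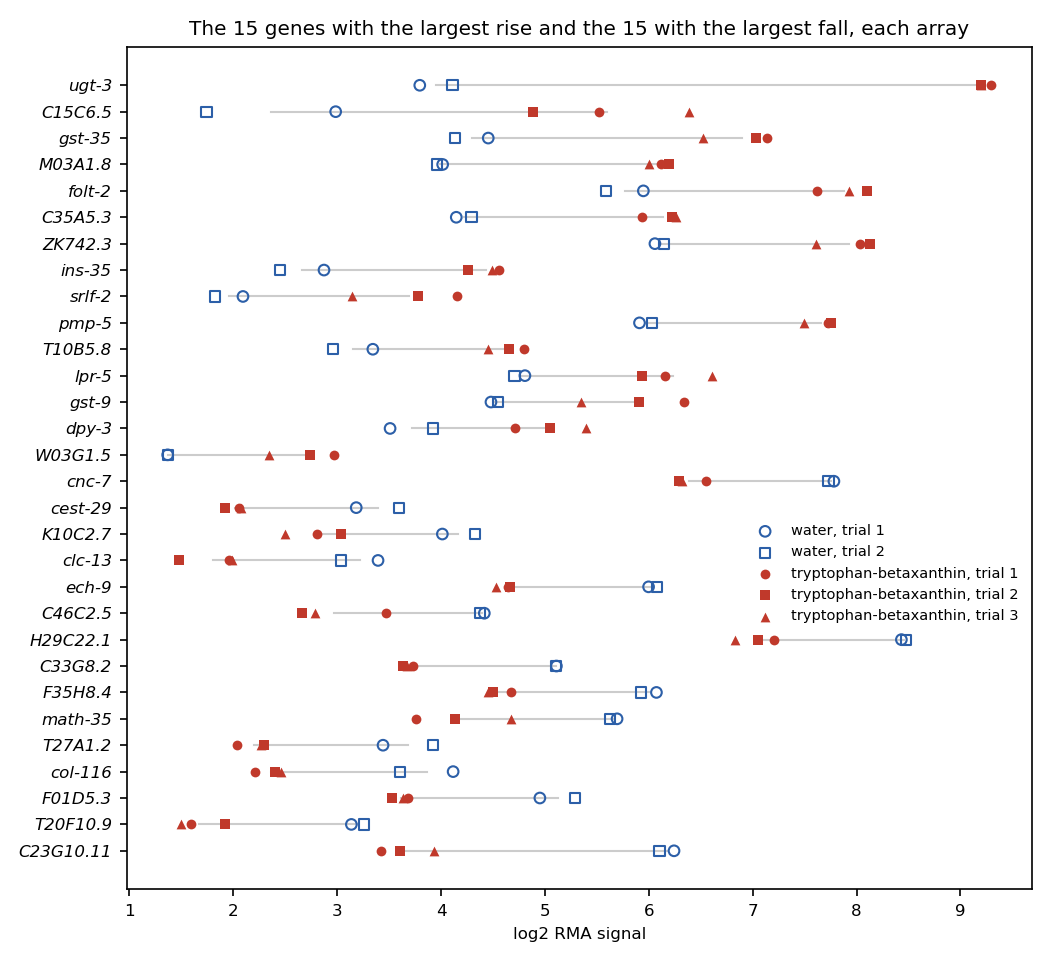
Log2 RMA signal (horizontal axis) of the 15 genes with the largest rise and the 15 with the largest fall past the threshold (rows). They were taken among genes with their own probe set, groups that did not overlap and a mean of 2.23 or more in the higher group. Open blue symbols are the water arrays, filled red symbols the tryptophan-betaxanthin arrays, shapes mark the trial, and the line joins the group means.

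Some genes of 2 vitamin-linked pathways were up-regulated. The propionate shunt is an alternative route that breaks down propionyl-CoA when the pathway that needs vitamin B12 runs short, and folate and B12 meet in the methionine cycle. Of 15 genes of propionate breakdown, 4 were up-regulated and none down-regulated, 26.7% against 0.731% of all genes, and the median difference of the list was 0.27. That median was 0.13, 0.25 and 0.49 in treated arrays 1, 2 and 3, and the controls themselves differed by a median of 0.15. The acyl-CoA dehydrogenase gene acdh-1, the first enzyme of the shunt, read 8.75 and 8.58 in water and 9.88, 9.83 and 9.97 after treatment (1.23, standard error 0.11, adjusted p = 0.0023). The hydrolase gene hach-1 read 5.58 and 5.45 against 6.57, 6.78 and 6.66 (1.16, adjusted p = 0.0030). Both were higher in every treated array than in either control, by about the same amount in the 3 trials. The hydratase gene ech-6 (0.75) and nhr-68 (0.77), a nuclear receptor that turns the shunt on, were the other calls. The last enzyme, alh-8, had a difference of 0.84 and did not pass (adjusted p = 0.0980), nor did nhr-10, the partner of nhr-68 (-0.17, adjusted p = 0.525). In the B12-dependent branch pcca-1 (0.27), pccb-1 (0.37) and mmcm-1 (0.26) did not pass either. Without the third treated array 5 genes of the list were up-regulated.

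In the folate and methionine cycles 2 of 26 genes were up-regulated and none down-regulated, 7.69% against 0.731% of all genes. The folate transporter gene folt-2 read 5.95 and 5.59 in water and 7.62, 8.10 and 7.93 after the pigment (2.12, standard error 0.17, adjusted p = 0.0016). Every treated array lay well above both controls. The methionine synthase reductase gene mtrr-1 was up-regulated by 0.57 (adjusted p = 0.0385), and 21 of the 26 genes had a difference above 0, with a median of 0.24, against 13758 of 26128 genes in all with a median of 0.01. Of 24 genes of tryptophan, kynurenine and serotonin metabolism, limma called none, and 15 were above 0 (median 0.02).

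Of 76 genes of fat storage, transport and breakdown, acdh-1 (1.23) and ech-6 (0.75), which belong to the propionate list as well, were up-regulated and 1 was down-regulated, 3.95% against 2.94% of all genes, and the list median was 0.07. The gene that fell, ech-9, is an enoyl-CoA hydratase gene and was down-regulated by 1.42 (standard error 0.11, adjusted p = 0.0012), with 6.0 and 6.08 in water and 4.65, 4.67 and 4.53 after treatment. The groups were narrow and far apart. In the peroxisomal list pmp-5 and daf-22, the thiolase gene that shortens ascaroside pheromones, were up-regulated (1.69 and 0.56) among 28 genes, 7.14% against 0.731%. What the pmp-5 protein carries, and where in the cell, was not measured. No gene of fatty acid desaturation and elongation was called by limma among 21 measured, and the 6 vitellogenin genes, which encode yolk proteins, had a median of -0.14 with none called.

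Of the lists examined, that of the cuticle collagens held the most up-regulated genes. Of 170 genes, 14 were up-regulated and 2 down-regulated, 8.24% and 1.18% against 0.731% and 2.2% of all genes. Those up-regulated included dpy-3, dpy-2, dpy-9, sqt-1, rol-6, rol-8 and bli-1, in which mutations change body shape or blister the cuticle. The signals of dpy-3 were 3.51 and 3.92 in water and 4.71, 5.05 and 5.4 after treatment (1.34, standard error 0.20, adjusted p = 0.0125), and those of sqt-1 were 4.71 and 4.72 against 5.51, 5.53 and 6.09 (0.99, adjusted p = 0.0232). In both the third trial was the highest and the groups did not overlap. The collagen gene with the largest change of either sign was col-116, which was down-regulated, from 4.12 and 3.61 to 2.21, 2.41 and 2.46 (-1.50, adjusted p = 0.0041).

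Calls among molting and hedgehog-related genes were also mostly higher. Of 56 molting genes 6 were up-regulated (10.7%, against 0.731% of all genes) and nekl-2 (-0.52) was down-regulated. Those up-regulated were noah-1 (1.04) and noah-2 (0.97), which encode proteins of the matrix laid down before the cuticle, mlt-10 (0.87), the patched-related gene ptr-4 (0.63), the fibrillin-like gene fbn-1 (0.57) and mlt-9 (0.56). The signals of noah-1 were 6.68 and 6.75 in water against 7.69, 7.55 and 8.03, so that each treated array was above both controls and the third trial was the highest. Of 61 hedgehog-related genes, secreted proteins of the epidermis that worms have in place of a true Hedgehog, 10 were up-regulated and none down-regulated, against 0.731% of all genes that were up-regulated. Of these, 7 were warthog genes, led by wrt-4 (0.90) and wrt-10 (0.85), and the others were grl-7 (0.82), grd-2 (0.66) and grl-20 (0.59).

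Lists drawn up after these values were seen held more genes of the same surface, beside some already counted above, and they carry no weight of their own. All 10 genes of the precuticle and apical matrix list were above 0, against 13758 of 26128 genes in all. Of the 10, 8 were up-regulated, 80% against 0.731% of all genes. Of these 8, noah-1, noah-2 and fbn-1 were counted above among the molting genes. The others included the lipocalin gene lpr-3 (1.19), the leucine-rich repeat genes sym-1 (1.07) and let-4 (0.73) and the zona pellucida domain gene let-653 (0.82). The neighboring genes lpr-3, lpr-4, lpr-5 and lpr-6 on chromosome X were all up-regulated, by 1.08 to 1.47. In lpr-5 the signals were 4.81 and 4.71 in water and 6.16, 5.93 and 6.61 after treatment (adjusted p = 0.0060). Of 13 genes that shape the surface coat, all were above 0 and 5 were up-regulated, 38.5% against 0.731% of all genes. These included glf-1 (1.09), the mutase gene that makes galactofuranose, srf-5 (1.08) and bus-5 (0.91).

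Many cuticle genes are known to switch on and off with each molt, and values that bear on stage are given here. The median difference of the collagens was 0.12, 0.17 and 0.36 in treated arrays 1, 2 and 3 relative to the mean of the controls, and that of the molting genes 0.17, 0.21 and 0.35. The controls themselves differed by a median of 0.11 in the collagens. The molting clock genes nhr-23 (0.33, adjusted p = 0.178) and lin-42 (0.44, adjusted p = 0.370) did not pass; lin-42 read 4.82 in the third treated array and 4.13 and 4.02 in the others, against 3.83 and 3.92 in water. Among markers of the hypodermis 20 of the 21 were above the median signal of the array. Their median difference was 0.22 over the fit and 0.08, 0.12 and 0.31 in treated arrays 1, 2 and 3, near that of the collagens in each. The 2 markers that were up-regulated, rol-6 and wrt-2, were counted above among the collagens and the hedgehog-related genes. The part of stage in the result was not tested. The third trial was also the highest with both esters described below in dpy-3, sqt-1, noah-1 and lin-42. In noah-1 the signals were 7.74, 8.18 and 9.28 with the methyl ester and 7.03, 7.01 and 9.21 with the benzyl ester. In the collagen gene col-123 the third trial was the lowest with the benzyl ester. Without a water array of that trial, a shift shared within it cannot be told from the pigment's effect, and this was not tested. Without the third treated array 20 collagen genes, 6 molting genes and 14 hedgehog-related genes were up-regulated. Without the second these counts were 5, 1 and 1, and without water array 1 or water array 2 none of the 3 lists had an up-regulated gene in limma.

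**Figure D3:**
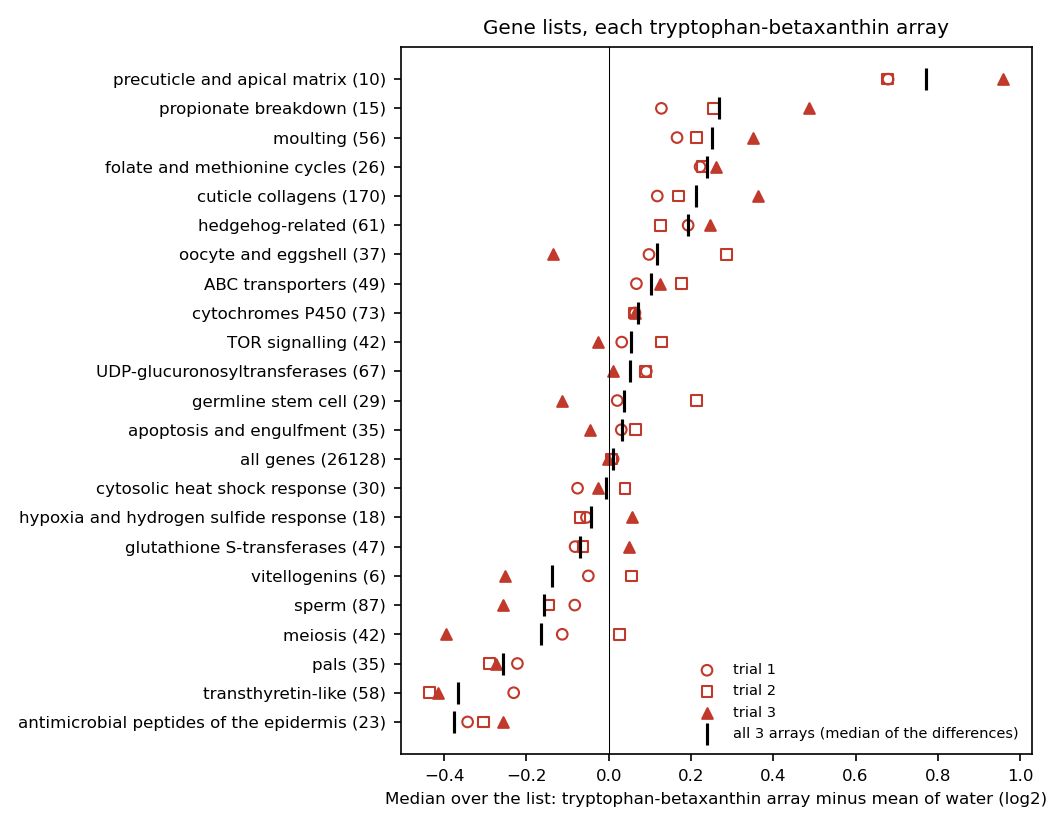
Median difference over the genes of a list (horizontal axis, log2, each tryptophan-betaxanthin array minus the mean of the water arrays) for 22 lists and for all genes, with the number of genes measured in parentheses. Open circles, open squares and filled triangles are trials 1, 2 and 3, and the bar is the median of the fitted differences; the precuticle genes lie highest (0.77) and the epidermal antimicrobial peptides lowest (-0.38), and all genes together lie at 0.01.

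The other product of the epidermis, the antimicrobial peptides, moved the other way. Of 23 such genes, 8 were down-regulated and 1 up-regulated, 34.8% and 4.35% against 2.2% and 0.731% of all genes, and the median of the list was -0.38. The signals of cnc-7, a caenacin gene, were 7.78 and 7.73 in water and 6.55, 6.29 and 6.32 after treatment (-1.37, standard error 0.12, adjusted p = 0.0020). Those of fipr-22 were 6.91 and 6.90 against 5.51, 5.74 and 6.05 (-1.14, adjusted p = 0.0091), and those of nlp-29, which is induced by fungal infection and wounding, were 9.16 and 9.1 against 8.16, 8.15 and 8.57 (-0.84, adjusted p = 0.0226). In each gene both controls lay above all treated arrays, and in fipr-22 and nlp-29 the third trial was the closest to water. The genes cnc-11 (-0.99), cnc-2 (-0.59) and nlp-28 (-0.54) were also down-regulated, while cnc-3 was up-regulated by 0.75. Without the second treated array 3 genes of the list were down-regulated. Several of these genes lie in clusters of similar copies, whose probes can share signal.

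Defense genes of the intestine were mixed. Of 63 infection response genes 7.94% were called, against 2.94% of all genes: irg-2 (-0.92), F35E12.9 (-0.72), K08D8.4 (-0.66) and F35E12.10 (-0.66) were down-regulated and K08D8.3 was up-regulated by 1.02. Among 240 C-type lectin genes 5 were up-regulated and 7 down-regulated (2.08% and 2.92%, against 0.731% and 2.2% of all genes), with clec-61 (1.26) and clec-70 (-1.28) at the extremes. The p38 kinase gene pmk-1 (-0.01), zip-2 (0.08) and the intestinal GATA factor gene elt-2 (0.24) did not pass. In the digestive protease list, where 4 of 58 genes or 6.9% were called, cpr-8 (0.66) and cpr-5 (0.59) were up-regulated, and asp-12 (-1.28) and nep-4 (-0.91) down-regulated.

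Of the lists examined, that of the transthyretin-like genes, a family of small secreted proteins that is large in nematodes, held the most down-regulated genes. Of 58 measured, 13 were down-regulated and none up-regulated, 22.4% against 2.2% of all genes, and 53 of the 58 were below 0 (median -0.37), against 12370 of 26128 genes in all. The signals of ttr-42 were 7.49 and 7.62 in water and 6.60, 6.53 and 6.34 after treatment (-1.07, standard error 0.12, adjusted p = 0.0048). In ttr-9 they were 6.31 and 6.24 against 5.17, 5.20 and 5.26 (-1.06, adjusted p = 0.0029). Each treated array was below both controls in these genes, as in every down-regulated gene, and the list median was -0.23, -0.44 and -0.42 in treated arrays 1, 2 and 3. Without the second treated array 4 genes of the family were down-regulated, without the third 15, and without water array 1 or water array 2 none by limma.

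Some heat shock genes were down-regulated. Of 30 genes of the cytosolic heat shock response, 4 were down-regulated and none up-regulated, 13.3% against 2.2%, with a list median of -0.01. The signals of hsp-70 were 5.60 and 5.90 in water and 4.31, 4.37 and 4.53 after treatment (-1.35, standard error 0.13, adjusted p = 0.0028). Those of hsp-16.2, a small heat shock protein gene, were 8.47 and 8.68 against 7.41, 6.96 and 7.52 (-1.28, adjusted p = 0.0084). Both genes were lower in every treated array than in either control. The small heat shock genes hsp-12.6 (-0.95) and hsp-43 (-0.64) were the other calls. A probe set shared by hsp-16.48 and hsp-16.49 read 7.48 and 7.39 in water and 6.0, 5.52 and 5.57 after treatment (-1.74, adjusted p = 0.0021), and of the pair shared by hsp-16.1 and hsp-16.11, one passed (-0.51, adjusted p = 0.0346) and the other did not (-0.45, adjusted p = 0.0541). These genes are near-identical copies, so the signal of each cannot be told apart. The heat shock factor gene hsf-1 (-0.15) and the chaperone genes hsp-1 (0.04) and hsp-90 (-0.01) did not pass. Without the second treated array 2 genes of the list were down-regulated.

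Among 18 genes of the responses to hypoxia and hydrogen sulfide, 3 were down-regulated (16.7%, against 2.2% of all genes), and all of these handle sulfur. They were ethe-1 (-0.69), a persulfide dioxygenase gene, cdo-1 (-0.51), the cysteine dioxygenase gene, and cysl-2 (-0.51), a cysteine synthase-like gene. The signals of cysl-2 were 8.07 and 8.0 in water and 7.52, 7.43 and 7.62 after treatment. The hypoxia factor gene hif-1 had a difference of 0.11 and did not pass. Without the first treated array 1 gene of the list was down-regulated, and without the second limma called none.

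Of 56 genes of insulin signaling, 1 was up-regulated and 3 were down-regulated, 7.14% called against 2.94% of all genes, with a list median of -0.01. All of these encode insulin-like peptides. The signals of ins-35 were 2.87 and 2.45 in water and 4.56, 4.26 and 4.49 after treatment (1.77, standard error 0.15, adjusted p = 0.0020), and those of ins-8 were 2.48 and 2.83 against 1.55, 1.69 and 1.52 (-1.07, adjusted p = 0.0060). The former was higher in every treated array and the latter lower, although the treated values of ins-8 lay below the median signal of the array (2.23). Down-regulated too were ins-23 (-1.04) and ins-7 (-0.66), an activator of the insulin receptor DAF-2. The target of that receptor, daf-16, had a difference of 0.18 and did not pass.

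In the germ line, the calls lay in sperm and meiosis. Of 87 sperm genes, 8 were down-regulated and none up-regulated, 9.2% against 2.2%, with a list median of -0.16. The signals of spe-11, a paternal gene of the early embryo, were 8.67 and 8.66 in water and 7.80, 7.69 and 7.70 after treatment (-0.93, standard error 0.10, adjusted p = 0.0048). Those of spe-12, which acts in the activation of spermatids, were 6.84 and 6.80 against 5.93, 6.02 and 5.48 (-1.01, adjusted p = 0.0154). All treated arrays were below both controls in these genes. The others included spe-27, which also acts in sperm activation (-0.89), spe-26 (-0.93), spe-58 (-1.03) and ssp-16 (-1.06). Limma called none of the 26 major sperm protein genes, of which 24 were below 0 (median -0.14). The median of the sperm list was -0.083, -0.145 and -0.256 in treated arrays 1, 2 and 3. Without the first treated array, in which that shift was smallest, 14 sperm genes were down-regulated.

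Of 42 meiosis genes, spo-11, which makes the breaks that start recombination (-0.62), and syp-3 of the synaptonemal complex (-0.58) were down-regulated, 4.76% against 2.2% of all genes, and 35 were below 0. The list median was -0.11, 0.03 and -0.40 in treated arrays 1, 2 and 3, so the third array was the lowest. It was also the lowest of the treated arrays in the oocyte and eggshell list (0.10, 0.29 and -0.14). Limma called none of the 37 genes of that list and none of the 29 genes of the germline stem cell list (median 0.04). Among 70 genes of DNA replication and mitosis the single call was rpa-4, a replication protein A subunit gene (-1.18), 1.43% called against 2.94% of all genes. Fewer germ cells or sperm and less RNA per cell cannot be told apart in whole animals.

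The genes that the study follows in the tumor did not pass the threshold. The gene gld-1 itself read 7.33 and 7.43 in water and 7.12, 7.45 and 7.14 after treatment, so the groups overlapped (-0.14, adjusted p = 0.703). The caspase gene ced-3 read 4.12 and 4.13 against 4.30, 4.19 and 3.95, with a difference of 0.03 (95% interval from -0.26 to 0.31, adjusted p = 0.957). For csp-1, a second caspase gene, the treated arrays were all higher, at 2.03, 1.83 and 1.75 against 1.49 and 1.45, a difference of 0.40 (95% interval from 0.13 to 0.66 before adjustment), but it did not pass (adjusted p = 0.127), and its signal lay below the array median. Limma called none of the 35 genes of apoptosis and engulfment, whose median was 0.03.

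In the TOR pathway daf-15, the worm Raptor gene, had a difference of -0.14 (95% interval from -0.38 to 0.09) and rict-1, the Rictor gene, of 0.22 (95% interval from -0.13 to 0.57). The kinase gene let-363 (0.01), mlst-8 (0.19) and sinh-1 (0.21) did not pass either. Of the 42 genes of the list, aakg-3, a regulatory subunit gene of the AMP-activated kinase (-0.54), and pqn-24 (-0.54) were down-regulated, 4.76% against 2.2%, and the list median was 0.05. Markers of other tissues were detected, with 32 of 34 body wall muscle, 22 of 26 intestine, 24 of 33 neuron and 16 of 22 somatic gonad genes above the array median. Limma called none of these, and their medians lay between 0.01 and 0.12. In the third treated array alone the median was 0.23 in body wall muscle and 0.17 in intestine.

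At 25 µM and 48 h the pigment could be set beside its methyl ester and its benzyl ester, in which the acid group of the tryptophan part is esterified, with 3 arrays each. Direct comparisons of 6 arrays asked which genes called against water also differed between the compounds. They were counted over the 133 called genes that the naming rule given below picked, and called genes named outside the rule are not among these. Across all probe sets 55 differed from the methyl ester (0.206%) and 822 from the benzyl ester (3.07%), and at an unadjusted p under 0.05 the shares were 19.6% and 18.9%. Of the 133 genes, 5 differed from the methyl ester and 16 from the benzyl ester, and ttr-30 from both. The 133 genes were called on the same tryptophan-betaxanthin arrays, so these counts are partly fixed by that choice and nothing is read from them against the shares over all probe sets. The 2 comparisons share those arrays, and the p-values were adjusted within each over all probe sets.

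The gene ugt-3 separated the acid from its methyl ester. It read 4.37, 4.08 and 2.20 with the methyl ester, close to or below the controls, and the difference from tryptophan-betaxanthin was 5.68 (standard error 0.52, adjusted p = 0.0328). With the benzyl ester it read 7.92, 7.93 and 4.53, above both water arrays in each trial, and the difference of 2.43 did not pass (95% interval from 0.32 to 4.54, adjusted p = 0.201). The third trial was the one that lay low. C15C6.5 was likewise higher than with the methyl ester (3.63, adjusted p = 0.0429), and C23G10.11 was lower (-2.29, adjusted p = 0.0109).

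C23G10.11 was the gene with the largest decrease against water. It read 6.24 and 6.10 in water, 3.43, 3.61 and 3.93 with tryptophan-betaxanthin (-2.52, standard error 0.15, adjusted p = 5.4e-04), 5.80, 5.88 and 6.16 with the methyl ester and 3.18, 3.77 and 4.71 with the benzyl ester. The acid and the benzyl ester lay below the other groups and overlapped each other (difference -0.23, 95% interval from -1.12 to 0.66). For gst-35 the methyl ester gave 6.77, 6.65 and 6.85, within the range of the tryptophan-betaxanthin arrays (difference 0.14, 95% interval from -0.27 to 0.55). The interval does not reach 1 in either direction.

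With the benzyl ester some genes went further than with the acid. The signals of folt-2 were 9.06, 9.23 and 8.83 with the benzyl ester, above all tryptophan-betaxanthin arrays (difference -1.16, adjusted p = 0.0303). The same held for C35A5.3 (-1.15, adjusted p = 0.0303), hach-1 (-0.83, adjusted p = 0.0341) and nhr-68 (-0.64, adjusted p = 0.0412). For acdh-1 the difference did not pass (-0.30, 95% interval from -0.64 to 0.05). With the methyl ester folt-2 read 6.04, 6.18 and 5.05, and its difference from the acid of 2.13 just missed the threshold (adjusted p = 0.0645). The antimicrobial peptide gene nlp-29 was lower with tryptophan-betaxanthin than with the benzyl ester (-0.80, adjusted p = 0.0487), and the collagen gene col-40 (2.06, adjusted p = 0.0324) and gst-12 (1.35, adjusted p = 0.0223) were higher. Leaving out any one tryptophan-betaxanthin array ended every call against both esters, with 3060 to 4542 probe sets at an unadjusted p under 0.05 against the methyl ester and 3341 to 4376 against the benzyl ester in limma. Without methyl ester array 1 there were 4 calls against that ester, and without array 2 or 3 there were 455 and 593. Without benzyl ester array 2 there were 0 calls against that ester (4181 unadjusted), and without array 1 or 3 there were 1275 and 2028.

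**Figure D4:**
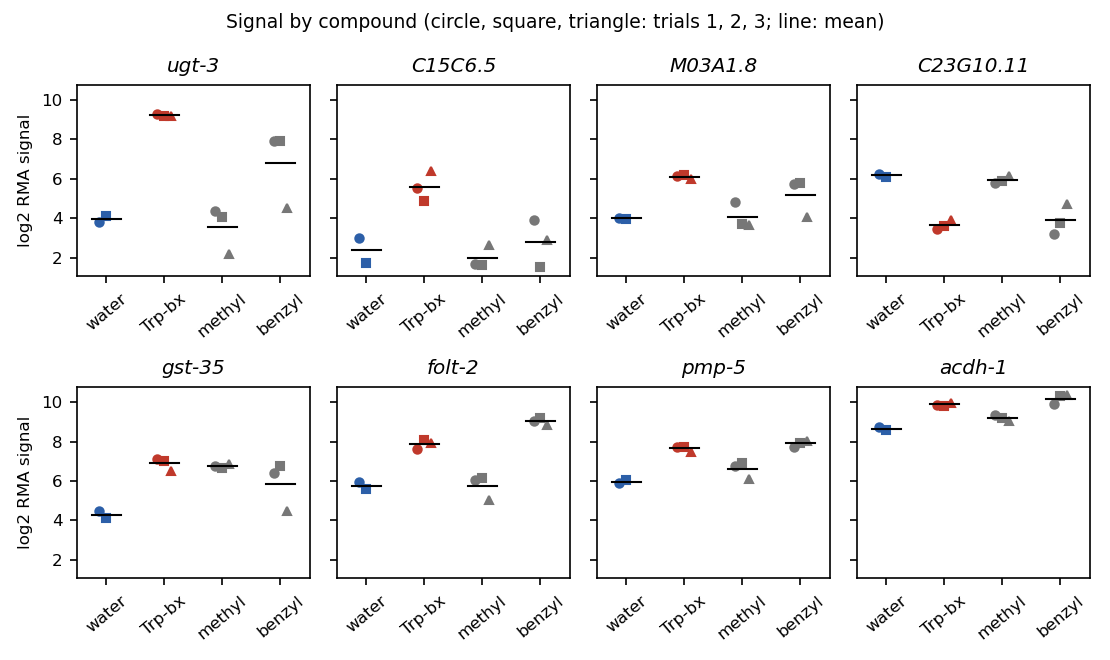
Log2 RMA signal (vertical axis) of 8 genes in the water, tryptophan-betaxanthin (Trp-bx), methyl ester and benzyl ester arrays (horizontal axis), with 1 symbol per trial and a line at each group mean. The tryptophan-betaxanthin arrays of ugt-3 lie at 9.19 to 9.29, the methyl ester arrays at 2.20 to 4.37, and the benzyl ester arrays at 4.53 to 7.93.

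Of the 793 probe sets called against water, 9 passed with any single array left out. They were ugt-3, gst-35, M03A1.8, folt-2, C35A5.3 and pmp-5 among those up-regulated and C23G10.11, F35H8.4 and C33G8.2 among those down-regulated. In C33G8.2 the signals were 5.11 and 5.10 in water and 3.73, 3.64 and 3.67 after treatment (-1.43, adjusted p = 0.0011). F35H8.4 read 6.07 and 5.93 against 4.67, 4.50 and 4.45 (-1.46, adjusted p = 0.0017). Their groups were tight and did not overlap. The remaining members of the 15 largest decreases were T20F10.9, a non-coding RNA gene (-1.53), F01D5.3 (-1.51), T27A1.2 (-1.48), H29C22.1 (-1.42), C46C2.5 (-1.42), the claudin-like gene clc-13 (-1.41), K10C2.7 (-1.39) and the pseudogenes math-35 (-1.47) and cest-29 (-1.37).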

How the data were processed

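Total RNA of whole animals was hybridised to Affymetrix Gene 1.1 ST arrays for C. elegans. The authors deposited a table of log2 signals, 1 per probe set. The submitters' processing notes name RMA and the Affymetrix Expression Console, the study's methods the Transcriptome Analysis Console, and versions were not given in the sources used here. RMA corrects background and equalises the distributions of the arrays, so a shift common to all genes would not be seen. The array medians lay between 2.23 and 2.26. No further normalization was applied.

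Of 29317 probe sets, 26761 have a gene symbol in the platform annotation and were tested (26281 with 1 symbol, 480 with several), and 2556 with none were left out. RefSeq (WBcel235) matched 24801. The brightest probe set stood for a gene with more than 1 (138 of 26128). A model with 2 groups was fitted to the 5 arrays with limma 3.58.1 in R 4.3.3 (lmFit, eBayes) and adjusted by Benjamini-Hochberg at 0.05. The fits against the esters used 6 arrays each. The code was tested on simulated data. For 52 gene lists counts and medians are given, with no set test. The chemoreceptor list is not described because its symbol pattern also took in other families. The rule named the 15 largest rises and falls, up to 6 called members per list, the genes the study names and a set of regulators. These rises and falls were taken among called genes whose groups did not overlap and whose higher mean reached 2.23. Other genes were named after their values were seen. The members, lists and rule were chosen with earlier results of these data known. The number of arrays limits the precision. Alternatives were a block on the trial number, all 11 arrays, another variance prior, array weights, cyclic loess, median centring, other sets of probe sets, other thresholds, averaging over a gene's probe sets (for list medians), and leaving out each array.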

Additional observations from a re-analysis of the deposited data

How the results depend on the processing

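In all 767 called genes the groups did not overlap, so leaving out or weighting arrays, or adding those of the esters, could not turn their direction. In each other fit against water, every probe set called in the fit on 5 arrays and tested again kept its direction (764 of 793 were tested when only signals above the median were kept), but the number called (793, of which 196 higher and 597 lower, 24.7% higher) moved widely. With the trial number as a replicate block, in which the third treated array has no partner, it was 1925 (583 higher, 1342 lower, 30.3% higher). The trial 1 minus trial 2 differences of water and of tryptophan-betaxanthin correlated at 0.03 over the tested probe sets. A shared number is therefore not shown to pair the arrays of these trials. The third trial, with no water array here, lay outside this check, so a shift shared within that trial was not tested. Array weights gave 1574 (417 and 1157). The 4-group fit on all 11 arrays, whose spread includes that of the esters, gave 1 higher and 0 lower by limma (1617 at an unadjusted p under 0.05; 100% higher). An adjusted p under 0.01 gave 148 (46 and 102, 31.1% higher), one under 0.10 gave 1529 (404 and 1125), and a difference of at least 1 gave 134 (44 and 90, 32.8% higher). The share that was higher was 29.7% after cyclic loess and 28.3% after median centring. Leaving out 1 array gave 10 to 1083 calls (6 to 301 higher, 4 to 782 lower, 23.1% to 60% higher). The directions of the ester calls were not compared between settings. Against the methyl ester, the 55 calls became 1970 with the replicate block, 366 with all 11 arrays and 0 to 593 without 1 array (3060 to 6052 at an unadjusted p under 0.05). Against the benzyl ester, the 822 became 439 with the replicate block, 163 with an intensity trend and robust prior, and 0 to 2028 without 1 array (3341 to 6207 unadjusted). Of the 133 called genes that the rule picked, 133 passed with the block and with array weights, 128 with the intensity trend, 120 after loess and 1 with all 11 arrays. Background was not measured, so for signals below the array median it is unknown how much is specific.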

Other observations

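A few groups were looked at only after their values had been seen, and they are given as values. Of 15 haem trafficking genes, hrg-7 (0.83), hrg-10 (0.63) and the haem transporter gene hrg-1 (0.56) were up-regulated and none was down-regulated, 20% called against 2.94% of all genes. The signals of hrg-7 were 8.97 and 8.83 in water and 9.88, 9.78 and 9.52 after treatment (adjusted p = 0.0160), so the groups did not overlap. Among 19 metal handling genes, hmt-1, an ABC transporter gene that protects against cadmium, rose by 1.16 (3.74 and 3.98 in water, 5.01, 5.16 and 4.90 after treatment, adjusted p = 0.0042). The copper ATPase gene cua-1 (0.78) and mtl-2 (0.69) were up-regulated as well, and cdr-4 fell by 0.77, so that 21.1% were called. The median of these genes was 0.11, with 14 above and 5 below 0.

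In 3 families with many copies in the genome most calls were lower. Of 35 pals genes, some of which respond to intracellular infection, 31 were below 0 (median -0.26) and 4 were down-regulated, namely pals-36 (-1.04), pals-6 (-0.60), pals-14 (-0.60) and pals-4 (-0.52), 11.4% against 2.2% of all genes. The signals of pals-36 were 5.01 and 5.11 in water and 4.19, 3.72 and 4.16 after treatment. Among 46 MATH domain genes, 5 were down-regulated and none up-regulated, among them math-3 (-1.32), math-22 (-0.94) and math-40 (-0.88). That was 10.9% of them, with 18 above and 28 below 0 and a median of -0.07. Of 28 claudin-like genes, 5 were down-regulated, including clc-12 (-1.04) and clc-21 (-1.02), and clc-24 was up-regulated by 0.81, 21.4% called in all, with 12 above and 16 below 0 and a median of -0.15. Copies within these families are similar, and probes can share signal between them.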
